A study of Caenorhabditis elegans with 27 samples.

Results

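The sperm genes described here are the 72 genes, of 46738 in the count table, whose symbol starts with msp-, spe-, ssp- or ssq-. They comprise 35 msp- genes, 21 spe- genes, 12 ssp- genes and 4 ssq- genes, and the symbol alone chose them. Their counts were read in 27 poly(A) RNA libraries made from whole worms, 3 for each of 9 RNAi feeding groups. The worms were N2 Caenorhabditis elegans with an hsp-6::GFP reporter, fed E. coli HT115 from the egg stage at 20 °C for 2 days and harvested at the L4 or young adult stage. The mixed groups were mrps-5 with cbp-1, mrps-5 with atfs-1, cco-1 with cbp-1 and cco-1 with atfs-1. In these the mitochondrial clone made up 50% of the bacteria, the cbp-1 clone 25% (the remainder empty vector) and the atfs-1 clone 50%, per the labels. The mrps-5 and cco-1 groups each held 50% of their clone with empty vector, the cbp-1 and atfs-1 groups have no share stated, and the controls received empty vector (EV). cco-1 encodes a cytochrome c oxidase subunit, mrps-5 a mitochondrial ribosomal protein, cbp-1 an acetyltransferase related to mammalian CBP and p300, and atfs-1 a transcription factor of the mitochondrial stress response.

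Hermaphrodite worms make sperm for a limited time around the last larval stage and then switch to oocytes, so the stage sampled here spans the time at which sperm transcripts are made or have just been made. The major sperm proteins (MSPs), encoded by a large family of short and nearly identical msp- genes, form the filaments on which the amoeboid sperm crawl, and MSP released from sperm also signals oocytes to mature. The spe- genes were named for mutants with defective spermatogenesis or fertilization and encode unrelated proteins, from kinases and a myosin to membrane proteins of the sperm surface. The ssp- and ssq- genes are sperm-specific families, and several ssp- products are short proteins with an MSP-like domain. Because near-identical msp- copies lose reads that align to several places, the spe- genes are described apart from the other families.

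Libraries held 20672073 to 30938572 reads counted to genes, with a median of 27527028, and the 72 sperm genes took 0.0680% to 0.116% of them. Reads without a unique alignment made up 7.93% to 7.98% of all reads in the table in cbp-1 libraries, against 14.7% to 14.9% in EV. Their share was 12.4% to 13% in mrps-5, against 8.00% to 8.30% in cco-1. Such reads come from the whole genome, msp- copies among it, and the msp- genes took 0.0306% to 0.0564% of reads counted to genes. The share is therefore no measure of the reads that msp- copies lost. The targeted genes were lower in their own groups for 3 of the 4 clones. cco-1 had 167 to 171 CPM (library-scaled counts, with edgeR's TMM factors) in cco-1 libraries, against 292 to 308 CPM in EV, though it was also at 208 to 223 CPM in mrps-5 libraries, 218 to 226 CPM in cbp-1 libraries and 191 and 198 CPM in 2 of the 3 atfs-1 libraries. mrps-5 had 79.6 to 86.5 CPM in mrps-5 libraries, against 91.9 to 94.4 CPM in cbp-1 libraries and 101 to 108 CPM in EV. cbp-1 had 207, 211 and 207 CPM in cbp-1 libraries, against 272, 277 and 257 CPM in EV. The read count of atfs-1 was not lower in the libraries labelled atfs-1 RNAi (85.9, 93.5 and 92.1 CPM) than in EV (78.9, 77.0 and 77.0 CPM), nor in the mixtures, so those groups go by their labels. The libraries also fell into a pair of sets on an axis of 794 genes that are not sperm genes. These genes were picked because they differed between the first and the other atfs-1 libraries, so the placing of those 3 was fixed beforehand. The 3 EV, the 3 cbp-1 and the first atfs-1 library scored 0.261 to 0.452 on the axis, and the other 20 libraries -0.191 to -0.0574. Comparisons of cco-1, mrps-5 or atfs-1 with EV therefore cross the sets, while cbp-1 against EV and each mixture against its mitochondrial clone lie within 1 set. Nothing in the labels names separate cultures, so each p-value reflects the spread among these libraries alone, which may be technical.

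Of the 72 genes, 67 passed the filter on low counts, among them all 21 spe-, 12 ssp- and 4 ssq- genes and 30 of the 35 msp- genes. The 5 that did not pass, msp-32, msp-37, msp-52, msp-58 and msp-79, averaged 0.0105 to 0.0668 CPM. The annotation marks 68 of the 72 genes as protein coding, and msp-37, msp-42, msp-52 and msp-71 as pseudogenes. Of these pseudogenes msp-42 and msp-71 passed the filter and stay in the counts and medians. All msp- genes lie on chromosome II (15 genes, between 4785898 and 5810330 in WBcel235) or chromosome IV (20 genes, between 5055631 and 10144175). The 4 ssq- genes are also on chromosome IV, whereas 10 of the 21 spe- genes are on chromosome I, 5 on IV, 4 on V and 2 on III. Per annotated length, the level was highest in the msp- family, with a median of 31.3 RPKM (CPM per kilobase of annotated length) over the 35 genes and 78.1 RPKM for msp-50. The ssq- genes had a median of 27.7 RPKM, led by ssq-1 at 44 RPKM, and the ssp- genes one of 15.1 RPKM, led by ssp-10 at 46.2 RPKM. The spe- genes lay lower, with a median of 2.69 RPKM, from 0.477 RPKM for spe-42, which encodes a sperm membrane protein needed at fertilization, to 43.7 RPKM for spe-39, a vesicle trafficking gene that is also used outside the germ line.

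In worms fed the cbp-1 clone, most sperm genes stood higher than in EV. Of the 21 spe- genes 15 rose and 1 fell (edgeR's quasi-likelihood test, Benjamini-Hochberg adjusted p below 0.05 over 16435 genes), where 30.2% of all genes rose and 28.5% fell, 58.7% being called in all. The median log2 fold change of the spe- genes was 0.43, against 0.02 over all genes tested. Of the 46 msp-, ssp- and ssq- genes tested 24 rose and 1 fell, with a median of 0.27. In bulk RNA, a change in the number of sperm cells and a change in RNA per cell cannot be told apart, here or in the comparisons that follow.

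The clearest spe- rise was that of spe-15, which encodes a myosin of class VI needed to sort material during sperm formation (WBGene00004969, chromosome I, 1446497 to 1465358). It had 83.6, 84.2 and 82.9 CPM in cbp-1 libraries, against 56.7, 57.7 and 55.4 CPM in EV. Its 3 cbp-1 libraries stood above all other 24 libraries, and the log2 fold change was 0.56 ± 0.04 (estimate ± SE, n = 3 per group, edgeR adjusted p = 4.15e-15). spe-5, which encodes a B subunit of the vacuolar proton pump, had 19.9, 19.6 and 20.4 CPM in cbp-1 libraries, against 12.5, 12.0 and 12.7 CPM in EV (0.69 ± 0.07, edgeR adjusted p = 2.71e-11). spe-26, a kelch-repeat protein gene, had 9.99, 11 and 9.72 CPM in cbp-1 libraries, against 7.60, 6.54 and 6.79 CPM in EV (0.55 ± 0.09, edgeR adjusted p = 2.73e-06). It lies within R10H10.3 on the opposite strand, a gene that fell by 0.71 ± 0.05, and the sources used here do not give strand use in the counting. Genes on the opposite strand also overlap spe-15 (gst-25), spe-5 (ift-20), spe-9 (C17D12.5) and ssq-4 (T28H11.7), and reads over the shared stretches cannot be told apart. Other genes of sperm formation also rose, the presenilin gene spe-4 by 0.50 ± 0.10 and the casein kinase family gene spe-6 by 0.39 ± 0.08.

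Among genes needed at fertilization, spe-9, spe-41 and the egg-activation gene spe-11 rose, while the rises of spe-38 and spe-42 were not called by DESeq2. spe-9 encodes a transmembrane protein with EGF repeats that is needed for sperm to fuse with the egg (WBGene00004963, chromosome I, 11582743 to 11586069). It had 2.40, 2.85 and 2.99 CPM in cbp-1 libraries, against 1.58, 1.65 and 1.3 CPM in EV, with no overlap between the groups (0.86 ± 0.14, edgeR adjusted p = 1.78e-06). spe-41, a calcium channel gene of the TRPC class, had 20.1, 20.4 and 19.7 CPM in cbp-1 libraries, against 15.8, 14.4 and 14.5 CPM in EV (0.43 ± 0.07, edgeR adjusted p = 7.85e-07). spe-38, which encodes a 4-pass membrane protein of sperm, rose by 0.82 ± 0.36 (edgeR adjusted p = 0.0494), a call that ended without any 1 of the 6 libraries, at levels of 0.504 to 0.607 CPM in cbp-1 libraries against 0.245 to 0.370 CPM in EV. spe-42 rose by 0.49 ± 0.20 (edgeR adjusted p = 0.0311). spe-11, the paternal factor that sperm deliver for egg activation, had 17.1, 15.7 and 16.6 CPM in cbp-1 libraries, against 12.4, 11.5 and 13 CPM in EV (0.42 ± 0.08, edgeR adjusted p = 3.04e-05).

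The genes of sperm activation, the step by which round spermatids become crawling sperm, did not all move the same way. The spe-8 group acts in the hermaphrodite activation signal. Its tyrosine kinase gene spe-8 rose by 0.40 ± 0.12 and spe-19 by 0.87 ± 0.22 (edgeR adjusted p = 0.00376 and 0.000734). spe-12 gave 0.27 ± 0.14 and spe-27 0.43 ± 0.28, and neither passed (edgeR adjusted p = 0.104 and 0.186). spe-29, a further member of the group, fell (-0.97 ± 0.23, edgeR adjusted p = 0.000456). It had 0.638, 0.634 and 0.432 CPM in cbp-1 libraries, against 1.23, 1.11 and 1.03 CPM in EV. Among the other spe- genes, spe-47 rose by 0.65 ± 0.12 and spe-46 by 0.30 ± 0.09, while the palmitoyltransferase gene spe-10 gave 0.37 ± 0.16 (edgeR adjusted p = 0.0501).

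spe-44 and spe-39 were called in none of the 13 comparisons. spe-44, which encodes a transcription factor that switches on sperm genes, had 21.9, 22.2 and 21.2 CPM in cbp-1 libraries, against 19, 22.1 and 20.7 CPM in EV, and the 27 libraries held 18.4 to 22.2 CPM with overlapping groups. Its log2 fold change was 0.08 ± 0.06 (95% interval -0.04 to 0.20, edgeR adjusted p = 0.23). spe-39 gave -0.08 ± 0.04 (95% interval -0.17 to 0.0027, edgeR adjusted p = 0.0906), with 76.2 to 80.8 CPM in cbp-1 libraries, against 81.0 to 84.4 CPM in EV.

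**Figure D1:**
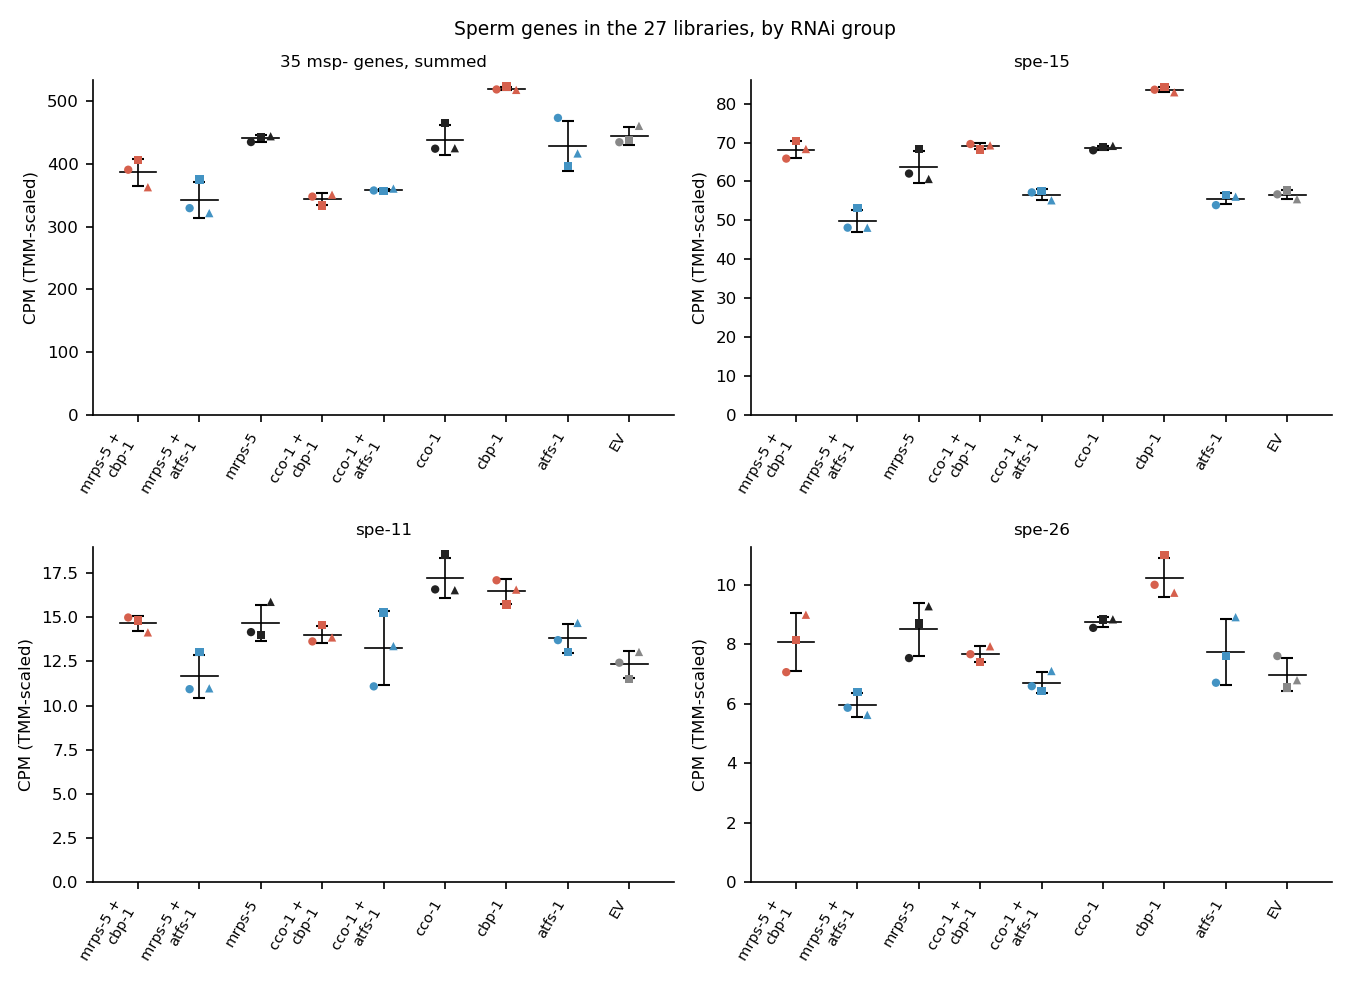
CPM (vertical axes, from 0) in each of the 27 libraries for the summed msp- genes, spe-15, spe-11 and spe-26, by RNAi group (horizontal axes). Points are libraries, the long bars group means and the brackets SDs (n = 3). The 3 cbp-1 libraries of spe-15 lie between 82.9 and 84.2 CPM, above every other library, and in both arms the mixtures with atfs-1 have lower means than their mitochondrial clone in all 4 panels.

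The msp- family, summed over its 35 copies so that reads shifting between copies cancel, reached 518, 523 and 518 CPM in cbp-1 libraries, against 434, 438 and 460 CPM in EV. The cbp-1 libraries stood above those of all other groups, and the summed change was 0.23 ± 0.05 on the log2 scale (edgeR adjusted p = 0.000298). The sum leaves out reads that aligned to several places, whose share differed between these groups as given above, and the part of that difference in the result was not tested. Of the 30 msp- genes tested 15 rose and 0 fell (edgeR, 16 of 30 at unadjusted p below 0.05). msp-38 had the smallest adjusted p, with 18.7, 18.5 and 19.2 CPM in cbp-1 libraries, against 11.4, 11.1 and 13.8 CPM in EV (0.64 ± 0.07, edgeR adjusted p = 4.38e-10); it lies within dhs-12 on the opposite strand. msp-57 rose by 0.43 ± 0.07 and msp-76 by 0.34 ± 0.07, and the highest copy, msp-50, gave 0.04 ± 0.07 (edgeR adjusted p = 0.627). Of 12 ssp- genes 7 rose and 1 fell, with ssp-34 at 0.42 ± 0.08 and ssp-10 at 0.39 ± 0.07. Of 4 ssq- genes ssq-3 (0.45 ± 0.09) and ssq-4 (0.39 ± 0.11) rose, and ssq-1 and ssq-2 did not pass (0.24 ± 0.12 and 0.20 ± 0.10).

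The cbp-1 libraries formed the top of the whole series for many of these genes. In 10 of 30 msp-, 9 of 21 spe-, 5 of 12 ssp- and 2 of 4 ssq- genes all 3 cbp-1 libraries lay above the other 24, as they did for 12.4% of all genes tested. All 3 lay below the other 24 for 0 of the 67 sperm genes, against 7.26% of all genes.

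When the cbp-1 clone was fed together with cco-1, the MSP family and the other sperm-specific families were mostly lower. Of the 46 msp-, ssp- and ssq- genes 32 fell and 0 rose relative to cco-1 alone (edgeR adjusted p below 0.05; 37 of the 46 at unadjusted p below 0.05), where 25.3% of all genes fell and 21.9% rose, 47.2% being called. Their median change was -0.34, against -0.02 over all genes. The summed msp- level was 348, 333 and 351 CPM in cco-1 with cbp-1, against 424, 465 and 425 CPM in cco-1, with no overlap (-0.35 ± 0.05, edgeR adjusted p = 9.84e-07). Here the share of reads without a unique alignment was 7.21% to 7.26% in cco-1 with cbp-1, against 8.00% to 8.30% in cco-1. ssq-4 had 26.2, 27.3 and 22.6 CPM in cco-1 with cbp-1, against 30.6, 37.9 and 31.7 CPM in cco-1 (-0.40 ± 0.10, edgeR adjusted p = 0.00326). Among the msp- copies msp-40 fell by 0.42 ± 0.06, msp-78 by 0.42 ± 0.08 and msp-3 by 0.39 ± 0.07. The ssp- genes were lower in 8 of 12, with ssp-35 down by 0.34 ± 0.08 and ssp-34 by 0.35 ± 0.09.

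Of the 21 spe- genes 2 rose and 4 fell in the same comparison, and their median change was -0.05. spe-9 stood at 2.27, 2.85 and 2.35 CPM in cco-1 with cbp-1, against 1.87, 1.77 and 1.94 CPM in cco-1 (0.42 ± 0.13, edgeR adjusted p = 0.012). spe-5 had 19.6, 20.8 and 19.7 CPM in cco-1 with cbp-1, against 17.4, 17 and 15.2 CPM in cco-1 (0.28 ± 0.07, edgeR adjusted p = 0.000495). Both genes also rose with the cbp-1 clone alone. The 4 that fell were spe-29 (-1.71 ± 0.28), spe-12 (-0.35 ± 0.14), the egg-activation gene spe-11 (-0.30 ± 0.08) and spe-46 (-0.22 ± 0.09; edgeR adjusted p = 2.94e-06, 0.0399, 0.00176 and 0.0492), and DESeq2 did not call spe-12 or spe-46. spe-15 was level, at 69.6, 68.2 and 69.3 CPM in cco-1 with cbp-1, against 68.0, 68.8 and 69.1 CPM in cco-1 (0.01 ± 0.04, 95% interval -0.08 to 0.09).

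The same mixture with mrps-5 had 14 such falls. Of the 46 msp-, ssp- and ssq- genes 14 fell and 0 rose in mrps-5 with cbp-1 relative to mrps-5 (edgeR; 19 of 46 at unadjusted p below 0.05), where 23.4% of all genes fell and 19.4% rose, 42.8% being called. Their median was -0.16. The count was 6 with upper-quartile scaling and 4 to 13 when single libraries were left out, at 9 and 4 without the first or the third mrps-5 with cbp-1 library and 7 and 5 without the first or the third mrps-5 library. The third mixture library had 363 CPM of summed msp- counts beside 391 and 406 CPM in the other mrps-5 with cbp-1 libraries, against 435, 442 and 444 CPM in mrps-5 (-0.19 ± 0.05, edgeR adjusted p = 0.00341). Reads without a unique alignment made up 8.68% to 8.81% in mrps-5 with cbp-1, against 12.4% to 13% in mrps-5, and the part of that gap in the msp- change was not tested. The ssq- genes fell in 3 of 4, ssq-1 by 0.40 ± 0.13, ssq-2 by 0.37 ± 0.10 and ssq-3 by 0.25 ± 0.10, and ssq-4 gave -0.25 ± 0.11 (edgeR adjusted p = 0.0672). ssq-1 stood at 36.7, 41.6 and 26 CPM in mrps-5 with cbp-1, against 48.2, 42.9 and 47.3 CPM in mrps-5. Without the third mixture library ssq-1 gave -0.24 (edgeR adjusted p = 0.107) and ssq-2 -0.23 (edgeR adjusted p = 0.0275), and the call of ssq-1 also ended without the first or the third mrps-5 library. Of the msp- copies msp-63 (-0.52 ± 0.18), msp-81 (-0.32 ± 0.09) and msp-64 (-0.30 ± 0.09) fell. Of the 21 spe- genes spe-42 (0.54 ± 0.20) and spe-5 (0.34 ± 0.07) rose and spe-29 fell (-0.88 ± 0.31), with a median of -0.00 (edgeR adjusted p = 0.0299, 5.83e-05 and 0.0215); DESeq2 called only spe-5 of these 3. spe-15 gave 0.10 ± 0.04 (edgeR adjusted p = 0.0502) and spe-11 -0.00 ± 0.08.

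**Figure D2:**
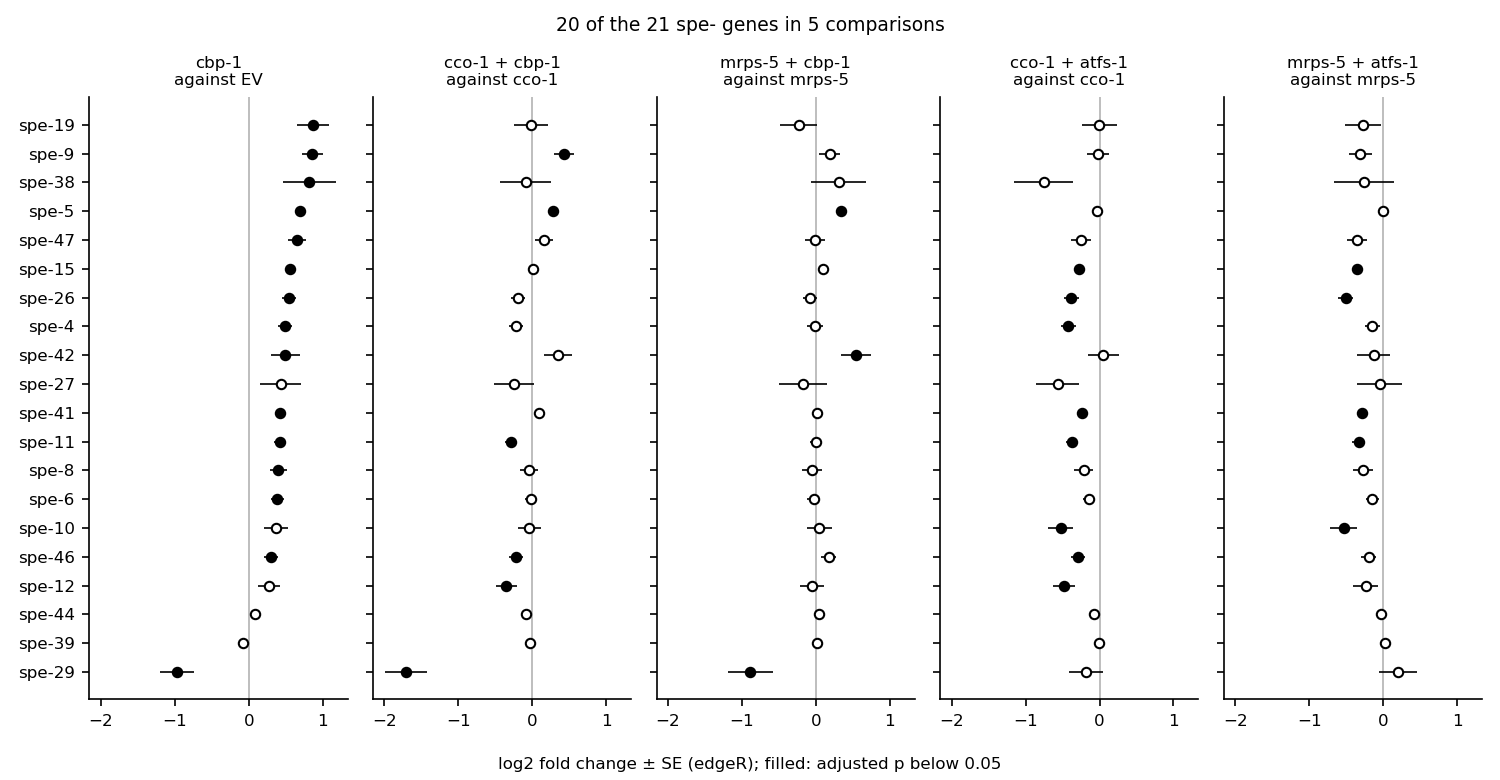
log2 fold change ± SE (horizontal axes) of 20 of the 21 spe- genes (rows) when the cbp-1 clone was fed alone (first panel), when it was fed with cco-1 or mrps-5 (the next 2) and when the atfs-1 clone was added (the last 2); filled points have an edgeR adjusted p below 0.05. In the first panel 14 points are filled to the right of 0, in each of the next 2 panels 2, while spe-29 is filled to the left in these 3, and the last 2 panels hold 8 and 5 filled points, all to the left.

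The difference between the cbp-1 clone alone and added to a mitochondrial clone was tested as an interaction. With cco-1, the interaction term was below 0 in 12 of 21 spe- genes and above 0 in none (edgeR adjusted p below 0.05; 14 of 21 at unadjusted p below 0.05), where 15.2% of all genes were below and 9.63% above, 24.9% being called. It was below 0 in 35 of the 46 other genes and above 0 in 1. The spe- median was -0.53 and that of the others -0.60, against -0.01 over all genes. For spe-15 the term was -0.55 ± 0.06 (edgeR adjusted p = 5.84e-10), for spe-26 -0.74 ± 0.13, for spe-4 -0.71 ± 0.13 and for spe-11 -0.71 ± 0.11. For the summed msp- count it was -0.58 ± 0.07 (edgeR adjusted p = 1.80e-07). With mrps-5, 11 spe- genes and 25 other genes were below 0, and 0 and 1 above (edgeR; 12 and 34 at unadjusted p below 0.05), where 15.5% of all genes were below and 8.12% above, 23.6% being called. The terms were -0.46 ± 0.06 for spe-15 and -0.42 ± 0.07 for the summed msp- count (edgeR adjusted p = 7.54e-08 and 4.90e-05). 10 spe- genes were below 0 in both, of 12 with cco-1 and 11 with mrps-5, and both terms share the cbp-1 and EV libraries. The overlap among all genes was not counted. The mixtures held 25% of the cbp-1 clone and the share in the cbp-1 group is not stated. The cbp-1 and EV libraries also lie in 1 library set, and the mitochondrial clones and their mixtures in the other. The effects of the mitochondrial clone, of the share of cbp-1 bacteria and of the library set therefore cannot be told apart. The cbp-1 read count fell by 0.37 ± 0.06 with the clone alone, by 0.24 ± 0.06 when added to cco-1 and by 0.22 ± 0.06 when added to mrps-5. The falls in the mixtures started from 317 to 334 CPM in cco-1 and 315 to 327 CPM in mrps-5. They ended at 274 to 277 CPM with cco-1 and 266 to 284 CPM with mrps-5, not below the 257 to 277 CPM of EV. With the clone alone the level was 207 to 211 CPM.

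The effect of the added cbp-1 clone in the mrps-5 arm minus that in the cco-1 arm was called for 0 of the 67 sperm genes (edgeR; 10 at unadjusted p below 0.05; 0 with DESeq2), where 5.49% of all genes were called (1.91% above 0 and 3.58% below). The summed msp- count gave 0.16 ± 0.07 for this difference (95% interval 0.01 to 0.31, edgeR adjusted p = 0.28). The smaller number of falls in the mrps-5 arm was thus not called as a difference between the arms in these fits. The estimate was above 0 in 51 of the 67 genes and below in 16, with a median of 0.16, against -0.0050 over all genes. Some of the alternative fits, given at the end, called a few of these genes.

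**Figure D3:**
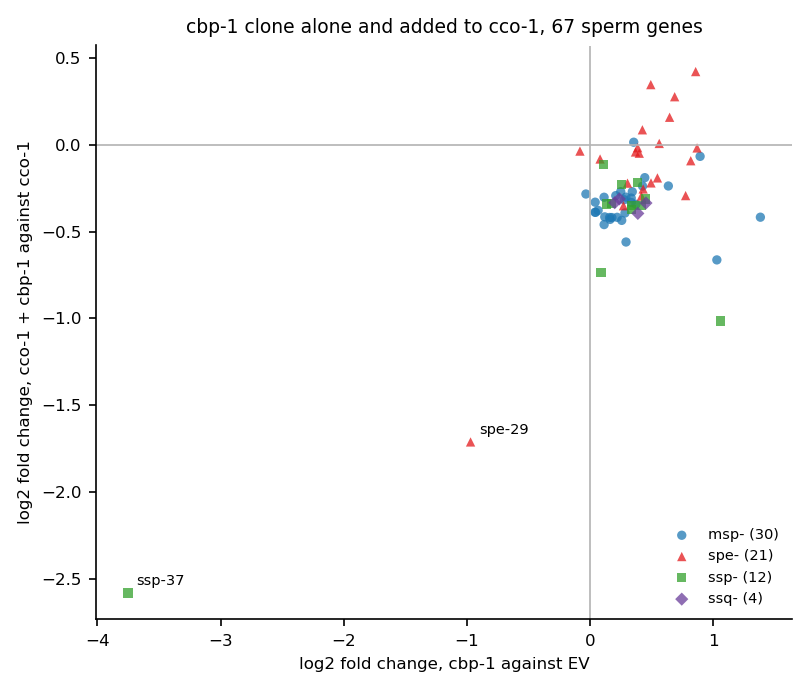
log2 fold change of the 67 tested sperm genes in cbp-1 against EV (horizontal axis) and in cco-1 with cbp-1 against cco-1 (vertical axis), with 1 symbol per family. Most msp-, ssp- and ssq- points lie right of 0 and below 0, spe- points are spread around 0 on the vertical axis, and spe-29 and ssp-37 lie below 0 on both.

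ssp-37 and spe-29 fell in all 3 comparisons with the cbp-1 clone. ssp-37 (WBGene00012211, chromosome I, 12561040 to 12561560, minus strand) had 0.698, 0.563 and 0.540 CPM in cbp-1 libraries, against 7.91, 8.72 and 8.04 CPM in EV (-3.75 ± 0.18, edgeR adjusted p = 3.73e-21). It had 0.582, 0.475 and 0.663 CPM in cco-1 with cbp-1, against 2.89, 4.06 and 3.38 CPM in cco-1 (-2.58 ± 0.21), and 0.381, 0.754 and 0.489 CPM in mrps-5 with cbp-1, against 2.51, 2.59 and 2.17 CPM in mrps-5 (-2.14 ± 0.25). All 9 libraries with the cbp-1 clone were below 1 CPM and the other 18 were at 2.17 CPM or more. ssp-37 was also the 1 sperm gene whose interaction terms were called above 0 in both arms. They were 1.17 ± 0.34 with cco-1 and 1.61 ± 0.38 with mrps-5 (edgeR adjusted p = 0.00913 and 0.00145), a pair of values chosen after they were seen. ssp-37 was lower in cco-1 and mrps-5 than in EV by 1.26 ± 0.13 and 1.76 ± 0.14 too, and with a term for the library set by 0.71 and 1.21 (edgeR adjusted p = 0.00332 and 2.26e-06). The interaction terms carry these lower starting levels, as all 9 libraries with the cbp-1 clone were similarly low. The annotated genes beside ssp-37, also chosen after their values were seen, went both ways in cbp-1 worms: W02D9.7 fell by 1.83 ± 0.06 and W02D9.6 rose by 1.85 ± 0.06.

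spe-29 (WBGene00004974, chromosome IV, 9933880 to 9934322, plus strand) is a short gene with low counts. Beside the values in cbp-1 worms above, it had 0.337, 0.267 and 0.199 CPM in cco-1 with cbp-1, against 0.780, 0.749 and 1.13 CPM in cco-1, and 0.381, 0.453 and 0.222 CPM in mrps-5 with cbp-1, against 0.609, 0.746 and 0.656 CPM in mrps-5. The groups do not overlap in any of these 3 comparisons. Its end overlaps the end of gon-1, an extracellular protease gene on the opposite strand, which fell by 1.25 ± 0.13, 1.08 ± 0.11 and 0.96 ± 0.12 in the same comparisons. Without stated strand use, reads from spe-29 and gon-1 cannot be told apart over the shared stretch. The gene on the other side of spe-29, F25H8.2, gave -0.00 ± 0.05 in cbp-1 worms.

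**Figure D4:**
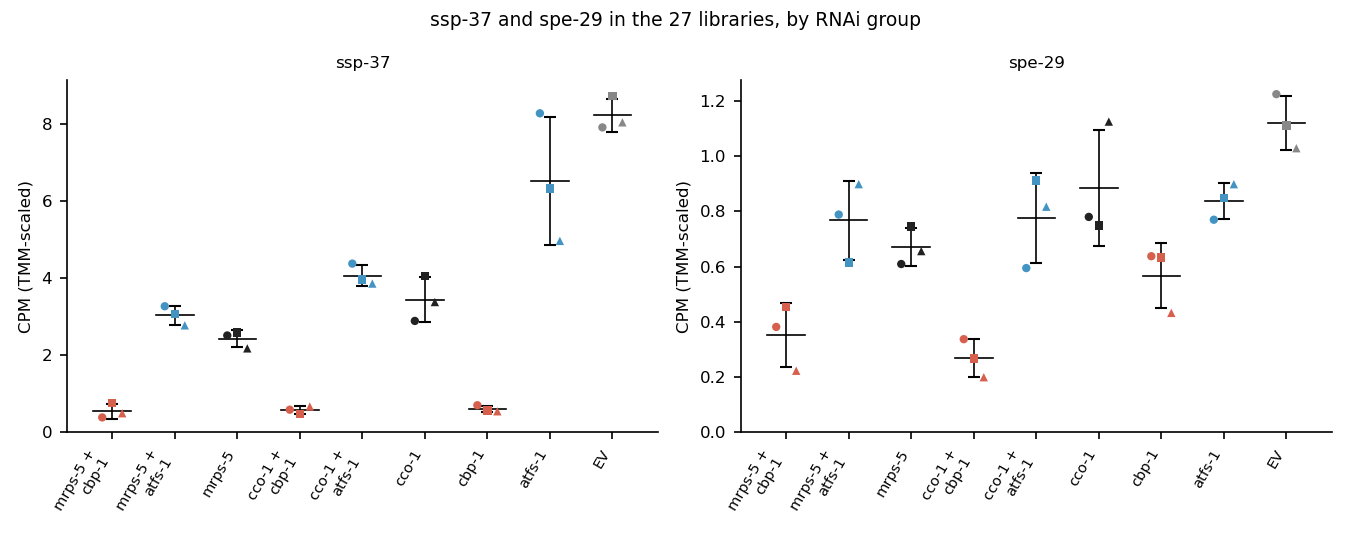
CPM (vertical axes, from 0) of ssp-37 and spe-29 in each of the 27 libraries by RNAi group (horizontal axes), with group means as long bars and SDs as brackets (n = 3). The 9 libraries with the cbp-1 clone hold 0.381 to 0.754 CPM of ssp-37, below all others.

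Adding the atfs-1 clone to a mitochondrial clone went with lower sperm gene levels in both arms. Of the 21 spe- genes 8 fell and 0 rose in cco-1 with atfs-1 relative to cco-1, and of the 46 others 25 fell and 0 rose (edgeR adjusted p below 0.05), where 11.5% of all genes fell and 8.97% rose, 20.4% being called. The medians were -0.25 and -0.30, against 0.00 over all genes. In mrps-5 with atfs-1 relative to mrps-5, 5 spe- genes and 26 others fell and 0 rose, where 9.98% of all genes fell and 6.85% rose, 16.8% being called. The medians there were -0.26 and -0.37, against 0.01 over all genes. Without the second cco-1 library the 25 were 13, and the 8 were 5 without the first or the third cco-1 or the third cco-1 with atfs-1 library. The arms share no library. All 5 spe- genes that fell in the mrps-5 arm were among the 8 of the cco-1 arm, and 23 other genes fell in both, of 25 and 26. The overlap between the arms among all genes was not counted, so these overlaps are not set against it. The difference between the arms was called for 0 of the 67 genes (edgeR; 1 at unadjusted p below 0.05; 0 with DESeq2), where 3.49% of all genes were called (1.64% above 0 and 1.84% below).

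spe-15 had 57.2, 57.6 and 55.1 CPM in cco-1 with atfs-1, against 68.0, 68.8 and 69.1 CPM in cco-1 (-0.28 ± 0.04, edgeR adjusted p = 1.42e-06). It had 48.1, 53.1 and 48.1 CPM in mrps-5 with atfs-1, against 62, 68.3 and 60.6 CPM in mrps-5 (-0.35 ± 0.04, edgeR adjusted p = 2.62e-08). The groups did not overlap in either arm. spe-26 fell by 0.38 ± 0.10 in the cco-1 arm and 0.50 ± 0.10 in the mrps-5 arm, spe-11 by 0.37 ± 0.08 and 0.33 ± 0.09, spe-41 by 0.24 ± 0.07 and 0.28 ± 0.07, and spe-10 by 0.53 ± 0.17 and 0.53 ± 0.19 (edgeR adjusted p = 0.021 and 0.041 for spe-10, which DESeq2 called in neither arm). spe-4 (-0.42 ± 0.10), spe-12 (-0.49 ± 0.15) and spe-46 (-0.29 ± 0.10) fell with cco-1, and DESeq2 did not call spe-46. With mrps-5 they gave -0.15 ± 0.10, -0.24 ± 0.16 and -0.20 ± 0.11 and did not pass.

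The summed msp- level was 357, 356 and 360 CPM in cco-1 with atfs-1, against 424, 465 and 425 CPM in cco-1 (-0.29 ± 0.05, edgeR adjusted p = 4.81e-05). In mrps-5 with atfs-1 it was 329, 375 and 321 CPM, against 435, 442 and 444 CPM in mrps-5 (-0.37 ± 0.05, edgeR adjusted p = 2.47e-06). The share of reads without a unique alignment was 7.85% to 7.99% in cco-1 with atfs-1 and 8.00% to 8.30% in cco-1, and 12.7% to 12.9% in mrps-5 with atfs-1 and 12.4% to 13% in mrps-5. ssq-3 fell by 0.36 ± 0.10 and 0.49 ± 0.10, and ssq-4 by 0.40 ± 0.11 and 0.38 ± 0.11. ssp-19 was lower by 0.34 ± 0.10 and 0.54 ± 0.09, ssp-10 by 0.28 ± 0.07 and 0.35 ± 0.08, and msp-40 by 0.34 ± 0.06 and 0.40 ± 0.07. ssp-37 gave 0.24 ± 0.14 and 0.32 ± 0.17 and did not pass in either arm.

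The mitochondrial clones alone gave small changes against EV, in comparisons that cross the library sets. Of the 21 spe- genes 6 rose and 0 fell in cco-1, where 23.1% of all genes rose and 22.2% fell, 45.3% being called; with a term for the library set the 6 became 2, spe-11 and spe-15. spe-11 had 16.6, 18.6 and 16.5 CPM in cco-1, against 12.4, 11.5 and 13 CPM in EV (0.48 ± 0.08, edgeR adjusted p = 7.55e-06; 0.47 with the term). spe-15 gave 0.28 ± 0.04 (0.22 with the term), while spe-5 (0.42 ± 0.07), spe-26 (0.32 ± 0.10), spe-41 (0.31 ± 0.07) and spe-4 (0.30 ± 0.10) lost their calls with it, at 0.10, 0.02, 0.25 and 0.34. This term rests on the atfs-1 libraries alone, the only group in both sets. A call can be lost without a smaller estimate, as for spe-4. In mrps-5, 5 spe- genes rose and 1 fell, where 19% of all genes rose and 18.9% fell, 37.9% being called. spe-5 (0.40 ± 0.07), spe-41 (0.33 ± 0.07), spe-26 (0.27 ± 0.10), spe-11 (0.25 ± 0.08) and spe-15 (0.17 ± 0.04) rose and spe-29 fell (-0.75 ± 0.23). With the term these 6 gave 0.08, 0.26, -0.02, 0.24, 0.10 and -0.93 and none was called, and the count over all spe- genes was 1. The atfs-1 clone alone gave 0 calls among the spe- genes (edgeR; 2 at unadjusted p below 0.05; 0 with DESeq2), where 10.8% of all genes were called. The summed msp- count did not differ from EV beyond its error, at -0.01 ± 0.05 in cco-1, -0.01 ± 0.05 in mrps-5 and -0.05 ± 0.05 in atfs-1 (edgeR adjusted p = 0.884, 0.939 and 0.637), and with the term the sign turned, to 0.20, 0.21 and 0.09.

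Single msp- copies differed between libraries of the same group, along the library sets. In cco-1, 11 of the 46 msp-, ssp- and ssq- genes rose and 8 fell against EV, where 23.1% of all genes rose and 22.2% fell. In mrps-5 11 rose and 8 fell, where 19% of all genes rose and 18.9% fell. In atfs-1 6 rose and 4 fell, where 5.54% of all genes rose and 5.24% fell. With the term for the library set these 19, 19 and 10 calls became 4, 4 and 0. Among copies picked after their values were seen, msp-36 had 41.3 CPM in the first atfs-1 library and 22.5 and 21.4 CPM in the others, and msp-33 had 31.7, 17.4 and 18.7 CPM. msp-10 went the other way, with 1.39 CPM in the first and 4.90 and 4.75 CPM in the others, as did msp-152 (11.7, 17.7 and 20.1 CPM). Of 30 msp- genes tested, 4 were over 1.5-fold higher in the first atfs-1 library and 3 over 1.5-fold lower, and all 7 differed in the same direction between EV and the mitochondrial clones, which also differ in set. Without that library 20 of the 46 genes were called in atfs-1 against EV, without the second or the third atfs-1 library 1 and 0, and without an EV library 3 or 4. The share of all genes called in these refits, or with the term, is not given here. The shifts in calls are therefore not set apart from those of other genes. For the library sets and the msp- copies, the RNAi clone and the library set cannot be told apart outside the atfs-1 group.

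**Figure D5:**
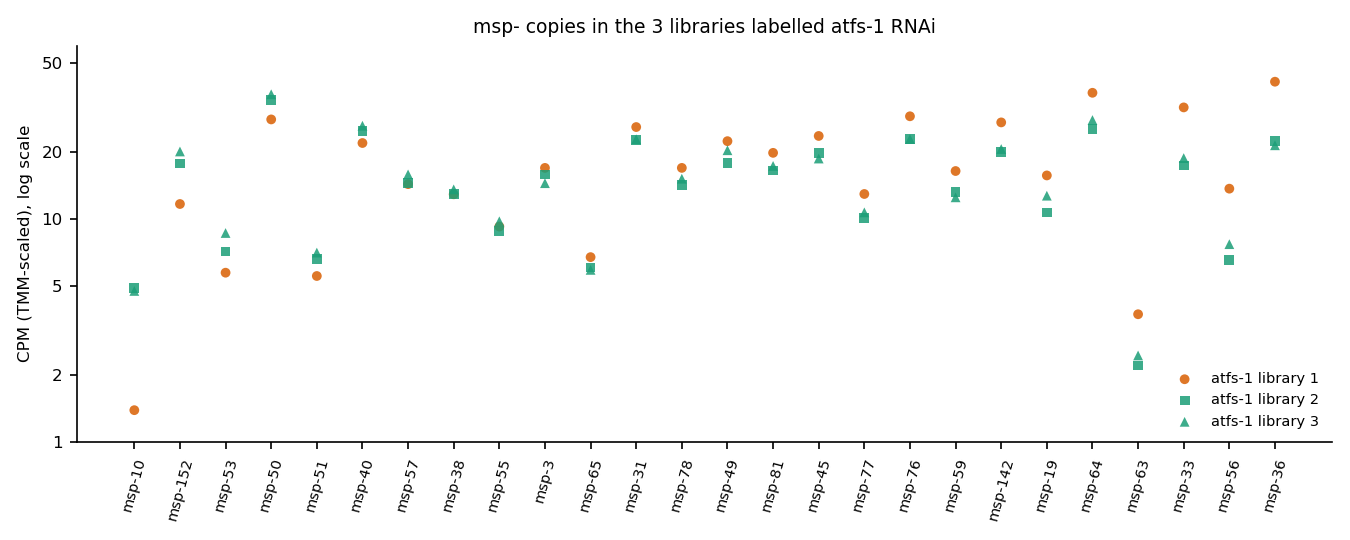
CPM on a log axis (vertical) of the msp- copies with at least 1 CPM in the first atfs-1 library, in the 3 libraries labelled atfs-1 RNAi (symbols), ordered by the difference between the first library and the others (horizontal). The second and the third library lie close together for each copy, while the first is lower for msp-10 and msp-152 and higher for msp-56, msp-33 and msp-36.

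Between the mitochondrial clones 2 of the 67 sperm genes were called. In mrps-5 against cco-1, spe-46 was lower (-0.33 ± 0.10) and ssp-37 was lower (-0.50 ± 0.16; edgeR adjusted p = 0.0218 and 0.0372), and the other 65 genes were not called, where 6.74% of all genes were higher and 5.02% lower, 11.8% being called. Leaving out 1 library ended the call of spe-46 for 3 of the 6 libraries (the first or the third of cco-1, the second of mrps-5) and that of ssp-37 for 5 of them (all but the first of cco-1), and DESeq2 did not call ssp-37. The summed msp- level was 435, 442 and 444 CPM in mrps-5, against 424, 465 and 425 CPM in cco-1 (0.0045 ± 0.05, 95% interval -0.10 to 0.11).

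Sperm genes with other names, a list of 28 genes from general knowledge of which 24 were tested, rose in cbp-1 worms. Against EV 22 rose and 0 fell (edgeR, median 0.35; 30.2% of all genes rose), among them gska-3, a kinase gene of sperm, by 0.86 ± 0.08, the sperm phosphatase gene gsp-3 by 0.61 ± 0.07 and spch-3, a sperm chromatin protein gene, by 0.47 ± 0.06. In cco-1 with cbp-1 against cco-1, 11 fell and 0 rose (median -0.24; 25.3% of all genes fell), with msd-4, an MSP-domain gene, at -0.37 ± 0.05, and in mrps-5 with cbp-1 4 fell and 0 rose, a share below the 23.4% of all genes that fell. With atfs-1 added, 11 fell in the cco-1 arm and 12 in the mrps-5 arm and 0 rose in either, where 11.5% and 9.98% of all genes fell. In a list of 20 genes of sperm fate and sex determination 4 rose and 6 fell in cbp-1 against EV (median -0.05). These shares were no higher than or near those of all genes (30.2% and 28.5%). The genes with the smallest adjusted p were sdc-2 (-0.52 ± 0.07), fog-3 (1.1 ± 0.15), which directs germ cells to become sperm, and fbf-2 (-0.30 ± 0.06). The sex determination gene tra-3 rose by 0.42 ± 0.05 when cbp-1 was added to cco-1, where 4 of the 20 rose and 3 fell, against 21.9% and 25.3% of all genes.

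Genes listed for other cell types and for the adult stage also changed in some of these comparisons, while cell numbers and stage were not measured. In cbp-1 against EV, where 28.5% of all genes fell and 30.2% rose, 13 of 23 oocyte genes fell and 1 rose (median -0.12), with the yolk receptor gene rme-2 at -0.28 ± 0.04. Their summed level was 11990 to 12483 CPM in cbp-1 and 14195 to 14608 CPM in EV. Much of this gap lay in perm-4 and perm-2. perm-4 had 531, 524 and 554 CPM in cbp-1, against 1173, 1194 and 1271 CPM in EV (-1.18 ± 0.08). perm-2 had 637, 607 and 679 CPM in cbp-1, against 1154, 1177 and 1227 CPM in EV. Of 22 general germline genes 8 fell and 2 rose, with a share of falls near that of all genes and a median of -0.05; the helicase gene glh-1 of germ granules fell by 0.45 ± 0.03. The largest movement was in 11 genes of the adult stage, mainly yolk protein genes, of which 8 fell and 1 rose (median -1.81), summing to 17772 to 19287 CPM in cbp-1 and 80695 to 83818 CPM in EV. They summed to 16948 to 17332 CPM in cco-1 with cbp-1 and 29539 to 32368 CPM in cco-1, and to 32115 to 33806 CPM in mrps-5 with cbp-1 and 66594 to 69625 CPM in mrps-5. In these comparisons 9 of the 11 fell with cco-1 and 10 with mrps-5, and 0 rose in either (25.3% and 23.4% of all genes fell). In cco-1 with atfs-1 5 of the 11 fell and 1 rose (median -0.20; 11.5% of all genes fell), among them the yolk protein gene vit-4 (-0.53 ± 0.06) and the collagen gene col-62 (-0.49 ± 0.07). In mrps-5 with atfs-1 2 fell and 2 rose (median -0.02), with col-62 at -0.64 ± 0.07. Of the 23 oocyte genes 1 rose in cco-1 with atfs-1 and 2 in mrps-5 with atfs-1, and 0 fell. The adult stage list summed to 28243 to 31004 CPM in cco-1 with atfs-1 and 29539 to 32368 CPM in cco-1, and to 71118 to 75521 CPM in mrps-5 with atfs-1 and 66594 to 69625 CPM in mrps-5. Genes of male somatic tissue, 8 in the list and 4 tested, summed to 5.17 to 5.22 CPM in cbp-1 and 2.43 to 3.15 CPM in EV. One of them passed, the seminal fluid protease gene try-5, at 3.13, 2.92 and 3.13 CPM in cbp-1, against 1.12, 0.823 and 0.915 CPM in EV (1.67 ± 0.16). cwp-3, a gene of male neurons, was at 0 in 1 of 3 cbp-1 libraries and 2 of 3 EV libraries, and the other 7 listed genes were above 0 in every library. In the mixtures the list summed to 3.71 to 3.95 CPM in cco-1 with cbp-1 and 2.78 to 3.19 CPM in cco-1, and to 3.43 to 4.37 CPM in mrps-5 with cbp-1 and 2.41 to 2.63 CPM in mrps-5. The part of stage, oocyte number or males in the sperm gene changes was not tested. Of 4 genes that act downstream of MSP in the gonad, ceh-18 fell by 0.71 ± 0.07 and vab-1, an Eph receptor gene, rose by 0.11 ± 0.03 in cbp-1 against EV.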

How the data were processed

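The deposited table holds whole-number read counts per gene for 27 libraries, which the authors made with STAR 2.6.0a and HTSeq 0.10.0 (build WBcel235, from the submitters' processing notes); the sources used here do not give strand use. Its summary rows, 8.71% to 17.0% of all reads in the table, stayed out of library sizes. Genes were matched by identifier to an Ensembl annotation of WBcel235, which covered all 72 members. Counts were fitted with edgeR 4.0.16 (quasi-likelihood, robust, TMM scaling, filterByExpr with a minimum count of 10, all 9 groups in 1 model) in R 4.3.3, over 16435 genes, and a call is a Benjamini-Hochberg adjusted p below 0.05. Estimates are log2 fold changes with SE, and CPM are counts scaled to library size with the TMM factors. The fit was tested on simulated counts. The common biological coefficient of variation was 4.18%. Counting error is large for genes below 1 CPM, such as spe-29 and spe-38.

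Any spe- gene could be named; the values of 1 are not reported here, though it stays in all counts and medians. Of the other families, up to 3 genes each with the smallest adjusted p per comparison were named with the highest by mean CPM, and up to 3 called genes of each further list. Members, lists and tests were chosen with earlier results of these data known. Alternatives were RLE scaling, upper-quartile scaling, DESeq2 1.42.0, a filter of 5 CPM in 3 libraries or none, a fit of the compared groups alone, a replicate block, a library-set term and leaving out each library. The library-set term came from genes outside the sperm families that differed by over 0.5 (log2 of CPM + 0.5) between the first and the other atfs-1 libraries. Library differences within groups exceeded sampling noise (chi-square per degree of freedom 1.45 to 29.9). The highest values, 29.0 and 29.9, were those of the first atfs-1 library with the others of its group. Such spread may be technical and does not show separate cultures. Each library counted as 1 replicate.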

Additional observations from a re-analysis of the deposited data

Results flagged for a closer look

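The effect of the cbp-1 clone differed between worms with and without a mitochondrial clone, by the interaction term of edgeR. With cco-1, 12 spe- genes and 36 of the msp-, ssp- and ssq- genes had a called term, where 24.9% of all genes did, and the summed msp- count gave -0.58. Those of named spe- genes were -0.89 for spe-19, -0.74 for spe-26, -0.71 for spe-4, -0.71 for spe-11, -0.62 for spe-12, -0.55 for spe-15, -0.53 for spe-46, -0.49 for spe-47, -0.41 for spe-5, -0.40 for spe-6 and -0.34 for spe-41. In the other families msp-38 gave -0.87, ssq-3 -0.79, ssp-34 -0.77 and ssp-37 1.17.

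With mrps-5, 11 spe- genes and 26 of the others had a called term, where 23.6% of all genes did, and the summed msp- count gave -0.42. Here those of named spe- genes were -1.1 for spe-19, -0.67 for spe-9, -0.66 for spe-47, -0.62 for spe-26, -0.51 for spe-4, -0.46 for spe-15, -0.42 for spe-11, -0.42 for spe-6, -0.41 for spe-41 and -0.35 for spe-5. In the other families ssp-16 gave -0.75, ssq-3 -0.70, msp-38 -0.68 and ssp-37 1.61. The mitochondrial clone, the share of cbp-1 bacteria and the library set cannot be told apart in these terms, which also share the cbp-1 and EV libraries. Those of ssp-37 also carry its lower starting level in cco-1 and mrps-5.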

How the results depend on the processing

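The 39 counts and summed msp- changes kept their direction, and counts stayed within 1.5 times, under RLE scaling and the replicate block, and in 38 of 39 with DESeq2, where mrps-5 against cco-1 had 0 msp-, ssp- and ssq- calls in place of 1. Same-numbered libraries deviated with correlations of -0.111 to 0.0322, so the numbers do not pair them; the block ended 1 call, that of spe-38 in cbp-1 (0.82, edgeR adjusted p = 0.0524). The library-set term moved the most. The msp-, ssp- and ssq- calls were 4 in cco-1 and 4 in mrps-5 against EV (19 each without it) and 0 in atfs-1 (10), and the spe- calls 2 in cco-1 and 1 in mrps-5 (6 each). It turned the summed msp- change to 0.20 in cco-1, 0.21 in mrps-5 and 0.0923 in atfs-1, ssp-11 to 0.23 in cco-1 (-0.77) and 0.041 in mrps-5 (-0.95), and spe-26 in mrps-5 to -0.0229 (0.27). It gave 3 spe- calls in mrps-5 against cco-1 (1) and 3 other calls for the difference between the cbp-1 arms (0). Why these values moved was not tested, and the share of all genes called under each alternative is not given here.

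Upper-quartile scaling gave 6 falls in mrps-5 with cbp-1 (14), 2 spe- calls in mrps-5 against cco-1, and summed msp- changes of 0.00658 in cco-1 and 0.0049 in mrps-5 against EV and -0.0017 in mrps-5 against cco-1. The 5 CPM filter, which tests fewer genes, gave 9 spe- calls in cbp-1 against EV (16), 1 in mrps-5 with cbp-1 (3) and 2 in mrps-5 against cco-1. No filter gave 19 other calls in atfs-1 against EV, 2 spe- calls in mrps-5 against cco-1 and 3 other calls between the cbp-1 arms. Fits on the compared groups alone gave 0 other calls in atfs-1 against EV, 3 spe- calls in mrps-5 against cco-1, and 3 other and 1 spe- calls between the cbp-1 arms.

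Leaving out single libraries gave 0 to 20 other calls in atfs-1 against EV, 13 to 25 other and 5 to 7 spe- calls in cco-1 with atfs-1, 4 to 13 other calls in mrps-5 with cbp-1, 0 to 1 other and 0 to 2 spe- calls in mrps-5 against cco-1, and 0 to 1 of each between the cbp-1 arms. The summed msp- change ranged from -0.13 to 0.0020 in atfs-1, -0.0568 to 0.0114 in cco-1 and -0.0292 to 0.013 in mrps-5 against EV, and from -0.0184 to 0.0499 in mrps-5 against cco-1. The cbp-1 counts against EV stayed at 14 to 15 spe- and 17 to 22 other calls, and the interaction with cco-1 at 9 to 13 and 30 to 37.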
